A study of Mus musculus with 15 samples.

Results

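The genes described here are 10 members of the naive pluripotency network: Nanog, Esrrb, Prdm14, Nr0b1, Fgf4, Dppa2, Dppa3, Dppa4, Utf1 and Tcl1. They were picked by name, because earlier results of these data placed them among low or absent transcripts, and they make up 10 of the 43432 genes counted. Their low level is therefore a description and carries no test. All 10 were found in the count tables of all 15 libraries, each from polyadenylated RNA of 1 mouse line of induced extraembryonic endoderm stem (iXEN) cells, which resemble the primitive endoderm and arise when fibroblasts are reprogrammed.

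The lines formed 3 groups of 5, all of CD1 background. Retroviral OSKM lines were clones, each grown from 1 cell with an active Oct4-EGFP reporter after mouse embryonic fibroblasts had received Oct4, Sox2, Klf4 and Myc by retrovirus. Lentiviral OSKM lines received the same 4 factors by lentivirus, and lentiviral SKM lines received Sox2, Klf4 and Myc without Oct4. The lentiviral lines were stable, past passage 11 and from different fibroblast preparations, whereas for the retroviral clones the preparations are not stated, so the p-values of tests on them reflect how clones vary, which may be less than how preparations vary. The lentiviral libraries are titled IPS and all but 1 carry the label induced pluripotent, although the series text calls them iXEN, and the treatment field of the retroviral lines and of that 1 library speaks of embryonic stem cells as the start. The lines are numbered 1 to 5 within a group below.

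Gata4, Gata6 and Sox17, which define the primitive endoderm, were at no less than 550, 105 and 318 CPM (counts scaled to the size of the library) in any line. Libraries held 34916933 to 46995817 counts in genes in the retroviral group and 60998360 to 75376275 in the lentiviral groups. A count of 0 allows up to 3 counts, which was 0.0387 to 0.084 CPM in a library, and this limit covers counting error only. Some libraries stood apart. Retroviral line 1 had the highest Pou5f1 (the gene of Oct4) and Sox2, at 73.5 and 66.4 CPM, retroviral line 3 was lowest in Foxa2, and lentiviral OSKM line 5 had the highest sum of 12 fibroblast markers, at 873 CPM. Pou5f1 did not separate the lines given Oct4 by lentivirus from those without it, with 1 to 38 counts in the lentiviral OSKM lines and 0 to 42 in the SKM lines. The counts do not separate transcripts of a vector from those of the endogenous gene.

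In naive pluripotent cells of the mouse blastocyst and in embryonic stem cells, Oct4 and Sox2 bind together at the control regions of many genes, among them Nanog, Fgf4 and Utf1. Nanog and Esrrb hold the self-renewing state, Prdm14 damps FGF signalling and DNA methylation, and Fgf4 is the secreted signal by which epiblast cells push their neighbours towards primitive endoderm. Cells that take the endoderm path lose Nanog and gain Gata6, and XEN cells are known for lacking the naive network.

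Promoter sequences of RefSeq (build GRCm38.p6) were found for 6 of the 10 genes, Nanog, Esrrb, Fgf4, Nr0b1, Utf1 and Tcl1. The 3 genes known as joint targets of Oct4 and Sox2 are shown. They gave very different counts in the same lines, and whether these windows bear on that was not tested. Each run ends at the base before the annotated start or, for Utf1, before the first exon base of GENCODE M21, on the plus strand of chr6:122707239-122707488 for Nanog, chr7:144861136-144861385 for Fgf4 and chr7:139943606-139943788 for Utf1. The Fgf4 window lies inside the longer GENCODE gene, which begins upstream. Capitals mark, for Nanog, the joint SOX and octamer motif, which is a SOX core (CATTGT), any 1 base and an octamer core (ATGCAAA), here on the minus strand, and for Fgf4 and Utf1 the GC boxes (GGGCGG).
Nanog: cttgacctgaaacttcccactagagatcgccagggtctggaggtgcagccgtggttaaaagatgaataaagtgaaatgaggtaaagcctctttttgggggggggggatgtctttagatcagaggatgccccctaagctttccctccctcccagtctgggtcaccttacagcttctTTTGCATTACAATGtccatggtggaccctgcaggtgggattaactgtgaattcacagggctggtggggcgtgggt
Fgf4: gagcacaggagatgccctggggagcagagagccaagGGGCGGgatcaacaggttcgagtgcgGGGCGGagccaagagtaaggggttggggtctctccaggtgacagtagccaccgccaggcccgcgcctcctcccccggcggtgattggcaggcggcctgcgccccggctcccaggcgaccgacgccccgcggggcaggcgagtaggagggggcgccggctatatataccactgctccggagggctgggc
Utf1: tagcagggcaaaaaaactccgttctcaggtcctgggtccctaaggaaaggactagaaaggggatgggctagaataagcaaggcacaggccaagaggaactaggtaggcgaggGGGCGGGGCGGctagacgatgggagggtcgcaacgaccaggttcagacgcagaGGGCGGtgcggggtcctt
Both strands of the 250 bases before each start were searched. The joint motif lay 75 to 62 bases before the Nanog start and was found in 2 of 32841 promoter entries (0.00609%), both of them Nanog starts, and its parts, the octamer core and the SOX core, whose counts include the joint motif, were found in 4.13% and 10.7% of entries. Fgf4 held 2 GC boxes and Utf1 held 4, the first 2 of them overlapping by 1 base and the last beyond the run shown, against 32.7% of entries with at least 1. Fgf4 had 21 CG dinucleotides in its window, Utf1 14 and Nanog 3, against a median of 6 over all entries. A match of letters is a description of the window and no evidence of binding. Control regions outside these 250 bases were not searched, so a window without the joint motif does not mean that the gene lacks it.

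Of the 150 values, 10 genes in 15 lines, 76 were 0 (50.7%, against 29.5% of the values of 21474 protein-coding genes) and 98 were at 3 counts or fewer (65.3%, against 34.8%). A level of 1 CPM was passed by 7 values (4.67%, against 52.1%), which belonged to Dppa4 and Utf1 in 3 lines each and to Nanog in 1. The name silent therefore held for Dppa3 in every line and for Fgf4, Tcl1, Nr0b1, Esrrb and Prdm14 in nearly all of them, but not for Dppa4, Utf1, Nanog and Dppa2, which were counted in most lines. In bulk RNA a few cells with much transcript and many cells with little cannot be told apart.

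**Figure D1:**
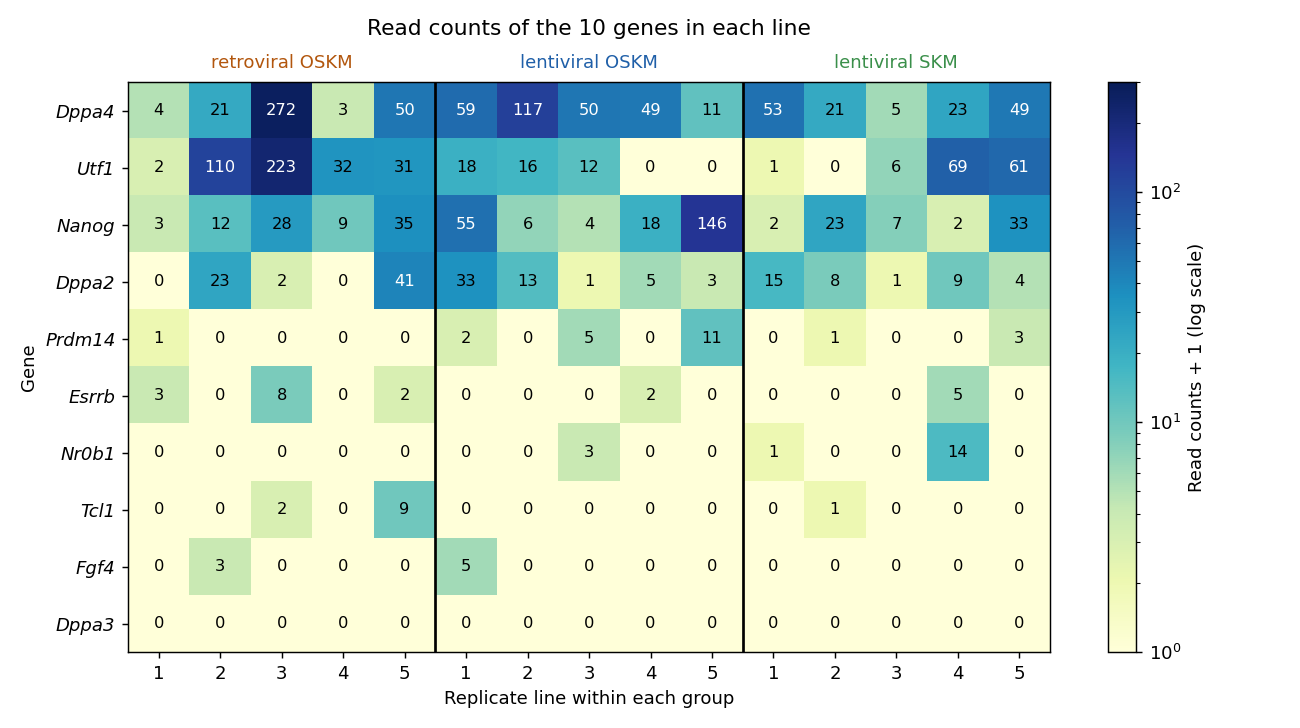
Read counts of the 10 genes (rows, ordered by total) in the 15 lines (columns, 5 per group), with colour on a log scale of counts plus 1. Dppa4 and Utf1 peak at 272 and 223 counts in retroviral OSKM replicate 3, Nanog at 146 in lentiviral OSKM replicate 5, and Dppa3 is 0 throughout.

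Nanog (ENSMUSG00000012396, chr6:122707489-122714633), the homeodomain factor at the core of the network, was counted in all 15 lines. Retroviral lines 1 to 5 gave 3, 12, 28, 9 and 35 counts, or 0.0822, 0.318, 0.67, 0.252 and 0.806 CPM. Lentiviral OSKM lines gave 55, 6, 4, 18 and 146 counts, or 0.813, 0.0874, 0.0545, 0.257 and 2.08 CPM. SKM lines gave 2, 23, 7, 2 and 33 counts, or 0.031, 0.38, 0.107, 0.0332 and 0.426 CPM. Lentiviral OSKM line 5 was the one line above 1 CPM, and the ranges of the 3 groups overlapped. The highest Nanog level was at or above that of 42.3% of protein-coding genes in their own highest line. A stretch of 160 to 190 bases in the Nanog transcript is at least 95% alike in sequence to 56 other genes, many of them expressed, besides the pseudogene Nanog-ps1. The Nanog pseudogenes Nanog-ps1 and Nanog-ps2 had 0 counts. How many Nanog counts fall in this stretch was not measured, so an unknown part of them is uncertain, above all in lines with few. The line with the highest Nanog was also the one with the highest fibroblast sum, where 11 Prdm14 counts, the most of any line, were found too. The fibroblast sum ranged from 64.4 to 538 CPM in the retroviral lines, 113 to 873 in the lentiviral OSKM lines and 87.5 to 481 in the SKM lines, 10 of the 12 markers passed 1 CPM in some line, and Col3a1 was at 0 in 10 lines. A sum of markers does not show that fibroblasts were present, and whether it bears on the Nanog level was not tested.

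Esrrb (ENSMUSG00000021255, chr12:86361117-86521628), an orphan nuclear receptor that can stand in for Nanog, gave 20 counts in all. They were 8 in retroviral line 3, 5 in SKM line 4, 3 in retroviral line 1 and 2 each in retroviral line 5 and lentiviral OSKM line 4, and 10 lines had none. The highest level, 0.191 CPM in retroviral line 3, stood against a limit of 0.0718 CPM in that library, and 2 lines were above 3 counts. Its close relative Esrra, a regulator of mitochondrial genes, was at 20 to 52.1 CPM in all lines, and Ncoa3, a coactivator that Esrrb uses in embryonic stem cells, at 114 to 239 CPM. RNA of this partner was thus counted in all lines, those without an Esrrb count included, but its protein was not measured. Whether it bears on the Esrrb level was not tested.

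Prdm14 (ENSMUSG00000042414, chr1:13113457-13127163), a zinc finger repressor, gave 23 counts. Lentiviral OSKM line 5 had 11 of them (0.157 CPM), lentiviral OSKM line 3 had 5 (0.0681 CPM), and 9 lines had none. Its corepressor Cbfa2t2 was at 16.7 to 45.7 CPM in all lines. Nr0b1 (ENSMUSG00000025056, chrX:86191764-86195947), a nuclear receptor without the usual DNA-binding domain, which binds Oct4 in mouse embryonic stem cells, gave 18 counts. Of these 14 came from SKM line 4 (0.233 CPM), 3 from lentiviral OSKM line 3 and 1 from SKM line 1, and no retroviral line had any, which allows up to 0.0154 CPM over that group. Apart from SKM line 4, Nr0b1 was never above 3 counts.

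Fgf4 (ENSMUSG00000050917, chr7:144847367-144865243) gave 8 counts in all, 5 in lentiviral OSKM line 1 (0.0739 CPM) and 3 in retroviral line 2 (0.0796 CPM). All 5 SKM lines had 0, which allows up to 0.00915 CPM over the group. Lentiviral OSKM line 1 was thus the one line above 3 counts, and 13 lines had none. Of 14 genes for FGF receptors, adaptors and ERK feedback, 12 were above 1 CPM in every line, among them Fgfr3 at 25.6 to 286 CPM, Fgfr4 at 1.22 to 94.5 CPM and the feedback inhibitor Spry4 at 20 to 162 CPM. The exceptions were the receptors Fgfr1, at 0.172 to 118 CPM and above 1 CPM in 11 lines, and Fgfr2, at 0.672 to 76.7 CPM and above 1 CPM in 13 lines, both of which primitive endoderm is known to use in reading Fgf4. Of 21 other FGF ligands, 3 were above 1 CPM in every line, namely Fgf3 at 7.02 to 95.1 CPM, Fgf10 at 3.71 to 35.3 CPM and Fgf11 at 1.04 to 10.4 CPM.

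Dppa4 (ENSMUSG00000058550, chr16:48283733-48294237) and Dppa2 (ENSMUSG00000072419, chr16:48303908-48319723) are neighbours 9.67 kb apart and encode a pair of SAP-domain proteins that bind chromatin together and, in mouse embryonic stem cells, activate Dux and genes of the 2-cell stage. Dppa4 gave the most counts of the 10 genes, 787. Retroviral lines 1 to 5 had 4, 21, 272, 3 and 50 counts, or 0.11, 0.557, 6.51, 0.084 and 1.15 CPM. Lentiviral OSKM lines had 59, 117, 50, 49 and 11 counts, or 0.872, 1.7, 0.681, 0.7 and 0.157 CPM. SKM lines had 53, 21, 5, 23 and 49 counts, or 0.822, 0.347, 0.0767, 0.382 and 0.632 CPM. Retroviral line 3 stood far above the rest, and the other 4 retroviral lines, at 0.084 to 1.15 CPM, lay within the range of the 10 lentiviral lines, 0.0767 to 1.7 CPM.

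Dppa2 was counted in 13 lines, with 158 counts. Retroviral lines had 0, 23, 2, 0 and 41 counts, lentiviral OSKM lines 33, 13, 1, 5 and 3, and SKM lines 15, 8, 1, 9 and 4. The highest levels were 0.944 CPM in retroviral line 5 and 0.61 CPM in retroviral line 2, and no line passed 1 CPM. The pair did not peak together: retroviral line 3, with 272 Dppa4 counts, had 2 of Dppa2 (0.0479 CPM). Over the 15 lines the Spearman rank correlation of the pair was 0.588, the highest among the pairs of the 4 counted genes, the others being 0.0717 to 0.247, all from the same libraries and low counts. Processed pseudogenes nearly identical to parts of these genes could take or give reads: Gm14058 is 99.4% alike over 532 bases of Dppa4 and had 60 counts, 21 of them in retroviral line 3 and 14 in lentiviral OSKM line 2, and Gm9788 is 99.3% alike over 906 bases of Dppa2 and had 115 counts.

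A list of 10 genes of the 2-cell-like state, such as the Zscan4 family, summed to 0.186 to 8.21 CPM, with the highest sums in retroviral line 3 (8.21 CPM) and lentiviral OSKM line 2 (6.05 CPM). These 2 lines also had the highest Dppa4, an overlap seen after the values were known, and over all 15 lines the rank correlation of Dppa4 with the sum was 0.436. Many of these genes belong to families of near-identical copies, so their counts are uncertain. Dppa3 (ENSMUSG00000046323, chr6:122626410-122630272), a maternal factor that shields DNA methylation in the early embryo and marks primordial germ cells, had 0 counts in all 15 lines, which allows up to 0.00344 CPM over the series. Its transcribed pseudogene Dppa3-ps, 98.2% alike over 451 bases, had 12 counts. Of 10 germ cell markers, 4 passed 1 CPM in some line: Kit, which many cell types express, at 118 to 667 CPM, Dnd1 at 0.668 to 2.19 CPM (11 lines), Prdm1 at 0 to 4.14 CPM (4 lines) and Dazl at 0.0153 to 1.05 CPM (1 line). The other 6 did not, among them Ddx4 at 0 to 0.115 CPM and Nanos3 at 0 to 0.11 CPM.

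Utf1 (ENSMUSG00000047751, chr7:139943789-139945112), a small chromatin protein of pluripotent cells, gave 581 counts. Retroviral lines had 2, 110, 223, 32 and 31 counts, or 0.0548, 2.92, 5.34, 0.896 and 0.714 CPM. Lentiviral OSKM lines had 18, 16, 12, 0 and 0 counts, or 0.266, 0.233, 0.163, 0 and 0 CPM. SKM lines had 1, 0, 6, 69 and 61 counts, or 0.0155, 0, 0.092, 1.15 and 0.787 CPM. In 4 of the 5 retroviral lines Utf1 was above every lentiviral OSKM line, and the fifth, line 1, lay inside their range. In the SKM group 2 lines were above and 3 lines below the highest lentiviral OSKM line. Tcl1 (ENSMUSG00000041359, chr12:105216750-105222793), a coactivator of the kinase Akt, gave 12 counts, 9 in retroviral line 5 (0.207 CPM), 2 in retroviral line 3 and 1 in SKM line 2. Its neighbours and relatives Tcl1b1 to Tcl1b5 had no counts in any line, while Akt1 was at 116 to 239 CPM.

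**Figure D2:**
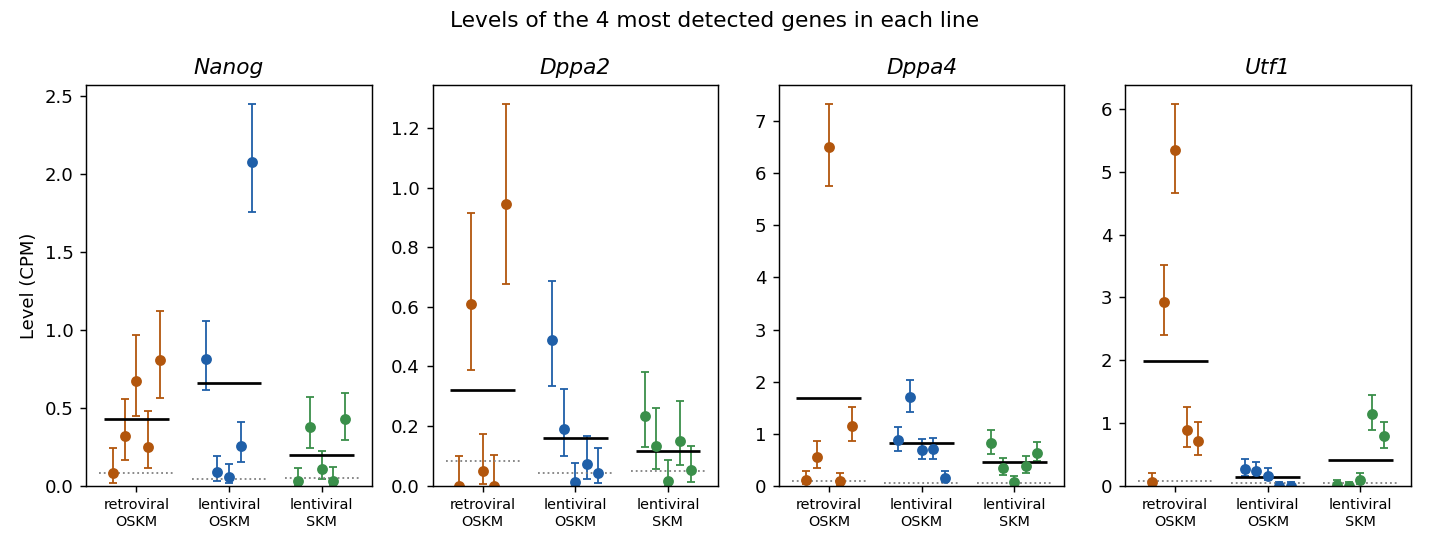
Level in CPM of Nanog, Dppa2, Dppa4 and Utf1 in each line, replicates 1 to 5 from left to right within a group, on linear axes that differ between panels. Bars are exact 95% Poisson intervals of counting error, black lines group means (n = 5), and dotted lines 3 counts in the group's shallowest library. Single lines set the top of each panel, such as 6.51 CPM for Dppa4 in retroviral OSKM replicate 3.

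Set per length, as CPM per kilobase of exon (RPKM), the mean levels over the 15 lines ran in the order Utf1 0.686, Dppa4 0.593, Nanog 0.19, Dppa2 0.0814, Nr0b1 0.0107, Tcl1 0.00982, Prdm14 0.00877, Esrrb 0.00476, Fgf4 0.0032 and Dppa3 0. The order has a step between Dppa2 and Nr0b1. Every neighbouring pair in this order overlapped over the lines, and the 5 genes between Dppa2 and Dppa3 were at 0 in 9 or more lines. Gata4 had a mean of 265 RPKM on the same scale. Of 30 other pluripotency network genes, 27 passed 1 CPM in some line and 15 in every line, against 3 and 0 of the 10 genes. The 10 genes were picked as low and both lists were made with earlier results known. The contrast therefore follows from the choice and is a description only. Those above 1 CPM in every line include Klf4 and Klf5, factors of the naive network, at means of 84.9 and 29.4 RPKM. Others are Tbx3 at 14.4 RPKM, Tfcp2l1 at 12.2 RPKM and Lin28a, an RNA-binding protein, at 96.6 RPKM. Klf4 was given by vector in all 3 groups, and its counts do not separate vector from endogenous transcripts. Close to the 10 genes at the low end were Tdgf1, a Nodal coreceptor, at 0.0016 RPKM, Gdf3, a ligand of the same pathway, at 0.12 RPKM and Nr5a2, a nuclear receptor, at 0.144 RPKM. Of 12 primed epiblast markers, 5 were above 1 CPM in some line and 2 in every line, Dnmt3b, a DNA methyltransferase, at 61 to 449 CPM and Sall2 at 16 to 54.1 CPM, and Fgf5 was at 0 in all lines.

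**Figure D3:**
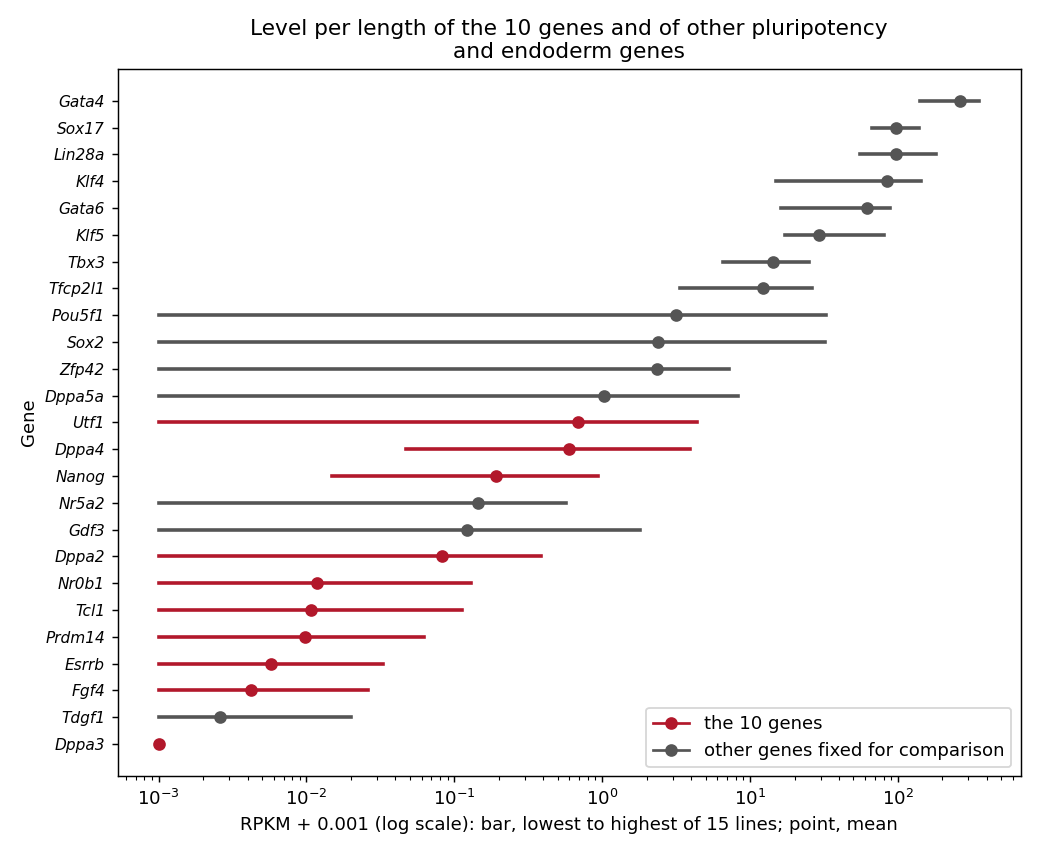
Level per length of the 10 genes (red) and of other pluripotency and endoderm genes (grey), as RPKM plus 0.001 on a log axis, with the mean of 15 lines (point) and the lowest and highest line (bar). The 10 genes have means at or below 0.686 RPKM, and Gata4 has 265.

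The question of the lentiviral design is whether lines made without Oct4 differ from those made with it. Nanog was at 0.195 ± 0.192 CPM in SKM lines and 0.659 ± 0.852 in lentiviral OSKM lines (SD, n = 5 each), Dppa4 at 0.452 ± 0.285 and 0.823 ± 0.561, and Utf1 at 0.408 ± 0.527 and 0.132 ± 0.126. These 3 were the members with enough counts to be tested, and by edgeR's quasi-likelihood test none was called, where 0% of 15899 genes were. The log2 differences were −1.75 (95% interval −4.08 to 0.58) for Nanog, −0.85 (−2.34 to 0.63) for Dppa4 and 1.61 (−1.44 to 4.67) for Utf1, each with an adjusted p of 0.987 in edgeR. The Nanog difference was −0.64 without lentiviral OSKM line 5, that of Dppa4 −0.41 without lentiviral OSKM line 2 and that of Utf1 0.76 without SKM line 4, so much of each value rested on 1 line. Over all genes 773 had an unadjusted p under 0.05, none of these 3 among them, DESeq2 called 44 genes (0.277%) and limma voom 0, no member among them either. The values of the groups overlapped for all 10 genes, where they did not for 0.73% of the genes tested. That share covers only genes with enough counts to be tested, as 3 of the 10 had. A gene at 0 in lines of both groups, such as Dppa3, can only overlap, so the overlap of the rarest members carries no information. With no filter on low counts, 6 further members could be fitted and had adjusted p of 0.675 to 0.935 in edgeR.

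Retroviral and lentiviral OSKM lines received the same factors, but vector, cloning by the reporter and library series differ together and cannot be told apart. This comparison uses the same lentiviral OSKM libraries as the one above. Utf1 was at 1.98 ± 2.16 CPM in retroviral and 0.132 ± 0.126 in lentiviral OSKM lines (SD, n = 5 each), Dppa4 at 1.68 ± 2.73 and 0.823 ± 0.561, and Nanog at 0.426 ± 0.302 and 0.659 ± 0.852. The same 3 members were tested and none was called by edgeR, where 0.252% of 15483 genes were, 17 higher and 22 lower. Utf1 had a log2 difference of 3.92 (SE 1.31, 95% interval 1.05 to 6.79) with an adjusted p of 0.219 in edgeR, and 4 of 5 retroviral lines were above the lentiviral OSKM mean. It was the 1 member of the 3 with an unadjusted p under 0.05 in edgeR, as had 2238 of the 15483 genes, and limma voom called no member. DESeq2, which called 4.02% of genes, called Utf1 with an adjusted p of 0.0342, and over all alternatives its adjusted p ran from 0.0342 to 0.411. Dppa4 differed by 1.07 (−1.26 to 3.4, adjusted p = 0.689 in edgeR) and by −0.75 without retroviral line 3. Nanog differed by −0.6 (−2.67 to 1.47, adjusted p = 0.811 in edgeR) and by 0.53 without lentiviral OSKM line 5. So the direction for these 2 genes rested on 1 line each. The values of the groups overlapped for all 10 genes, where they did not for 3.95% of the genes tested. Here too that share covers only tested genes, and members at 0 in lines of both groups can only overlap. With no filter, Tcl1, at 11 counts in retroviral and 0 in lentiviral OSKM lines, had an adjusted p of 0.367 in edgeR, the smallest of the 6 further members, and the largest was 0.983.

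The median of the 10 genes, as log2(CPM + 0.5), was −0.88 ± 0.12 in retroviral, −0.96 ± 0.06 in lentiviral OSKM and −0.95 ± 0.06 in SKM lines (SD, n = 5 each), where a gene at 0 sits at −1. The 30 other network genes had 3.91 ± 0.82, 2.81 ± 1 and 3.52 ± 0.64, a gap that the choice of the 10 as low genes set in advance. In these 30, 24 were tested in each comparison and 0 passed in edgeR, with 14 higher and 10 lower in each. Median log2 differences were 0.11 (SKM) and 0.14 (retroviral). In edgeR, 1 (SKM) and 7 (retroviral) of them had an unadjusted p under 0.05, where 773 of 15899 and 2238 of 15483 genes did. Of the genes of this list examined one by one, DESeq2 called Pou5f1 (adjusted p = 8.05e-05) and Zfp296 (adjusted p = 0.0355) in the retroviral comparison. The retroviral clones were grown from cells with an active Oct4-EGFP reporter, and vector Oct4 is not separated in the counts. The part of either in the Pou5f1 call was not tested. Pou5f1 ran from 0.112 to 73.5 CPM over the retroviral lines, with a median of 7.87 CPM and the highest value in line 1. The sum of the 10 genes averaged 4.55 ± 4.93, 1.85 ± 0.754 and 1.25 ± 0.731 CPM in the 3 groups, and 2.49 CPM in the retroviral group without line 3.

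Line by line, the sum was 0.356, 4.48, 12.8, 1.23 and 3.87 CPM in retroviral lines 1 to 5, 2.54, 2.21, 1.02, 1.06 and 2.44 in lentiviral OSKM lines, and 1.12, 0.892, 0.291, 2.03 and 1.93 in SKM lines. The gene that led the sum was Dppa4 in 8 lines, Utf1 in 4 and Nanog in 3. Retroviral line 1, with the highest Pou5f1 and Sox2, had 13 counts over the 10 genes, among them 3 of Nanog, 2 of Utf1 and 0 of Fgf4. It was the only line with Gdf3, at 159 counts (4.36 CPM). Retroviral line 5 had 21.7 CPM of Pou5f1 and 0.0691 of Sox2, with 35 Nanog and 31 Utf1 counts. Retroviral line 2 reached 110 Utf1 counts at 0.663 CPM of Pou5f1 and no count of Sox2. Among all lines only SKM line 3, at 0.291 CPM, had a lower sum than the line with the most Pou5f1 and Sox2, and over the 15 lines the rank correlation of the sum with Pou5f1 was 0.382. Retroviral line 3, with the highest sum, was lowest for the sum of 12 primitive endoderm genes, at 5400 CPM against 13200 to 24300 elsewhere, though all 12 stayed above 1 CPM. The laminin chain Lamb1 made up 66.7% to 81.2% of that sum, and the other 11 genes summed to 1800 CPM in this line against 3120 to 4910 elsewhere. The part of this in the result was not tested. SKM line 4 held most Nr0b1 (14 of 18 counts), 5 of 20 Esrrb counts and 69 Utf1 counts, together with the highest Dppa5a, an RNA-binding protein of naive cells, at 5.1 CPM.

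**Figure D4:**
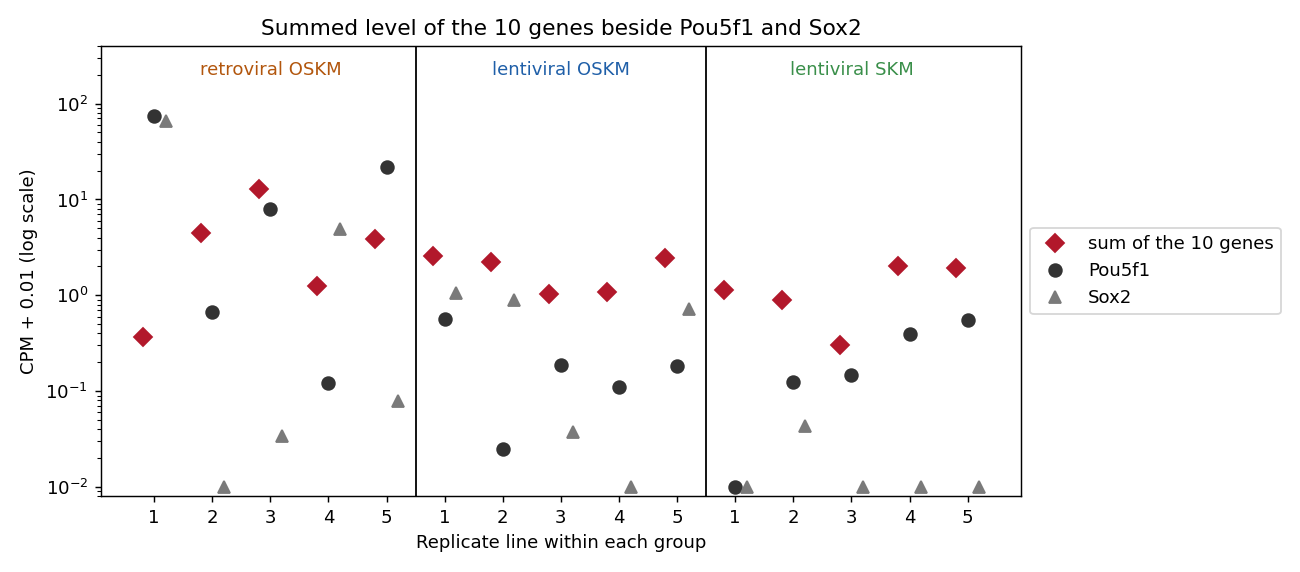
Sum of the 10 genes (diamonds) beside Pou5f1 (circles) and Sox2 (triangles) in each line, as CPM plus 0.01 on a log axis. Retroviral OSKM replicate 1 has 73.5 CPM of Pou5f1 and 66.4 of Sox2 with a sum of 0.356 CPM, and replicate 3 has the highest sum, 12.8 CPM.

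Low counts of the 10 genes did not extend evenly to their chromosomal neighbours. Slc2a3, a glucose transporter 13.2 kb from Nanog, was at 1690 to 4920 CPM, and Fgf3, 2.93 kb from Fgf4, at 7.02 to 95.1 CPM. Ncoa2, a nuclear receptor coactivator 11.9 kb from Prdm14, was at 25.4 to 81.2 CPM, and Gpatch2l, 69.3 kb from Esrrb, at 12.2 to 38.4 CPM. So 4 of the 10 genes sat beside a neighbour above 1 CPM in all 15 lines. The share of all protein-coding genes with such a neighbour was not counted, and 52.1% of all their values were above 1 CPM. The count is therefore a description and sets the 10 genes apart from no others. The neighbours of Nr0b1 (Samt3 and Mageb4) and of Tcl1 (Tcl1b4 and Tunar) were at or below 0.143 CPM in every line. Beside Utf1, Kndc1 at 2.25 kb reached 3.28 CPM in its highest line, and 6430531B16Rik stayed under 1 CPM in every line. Dppa3 lies between Gdf3 and Nanog. The nearest protein-coding gene beyond Dppa4 is Nectin3, an adhesion protein, as far as 1790 kb away and at 0.756 to 35.5 CPM. Beyond Dppa2, at 112 kb, lies Morc1 at up to 0.806 CPM.

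**Figure D5:**
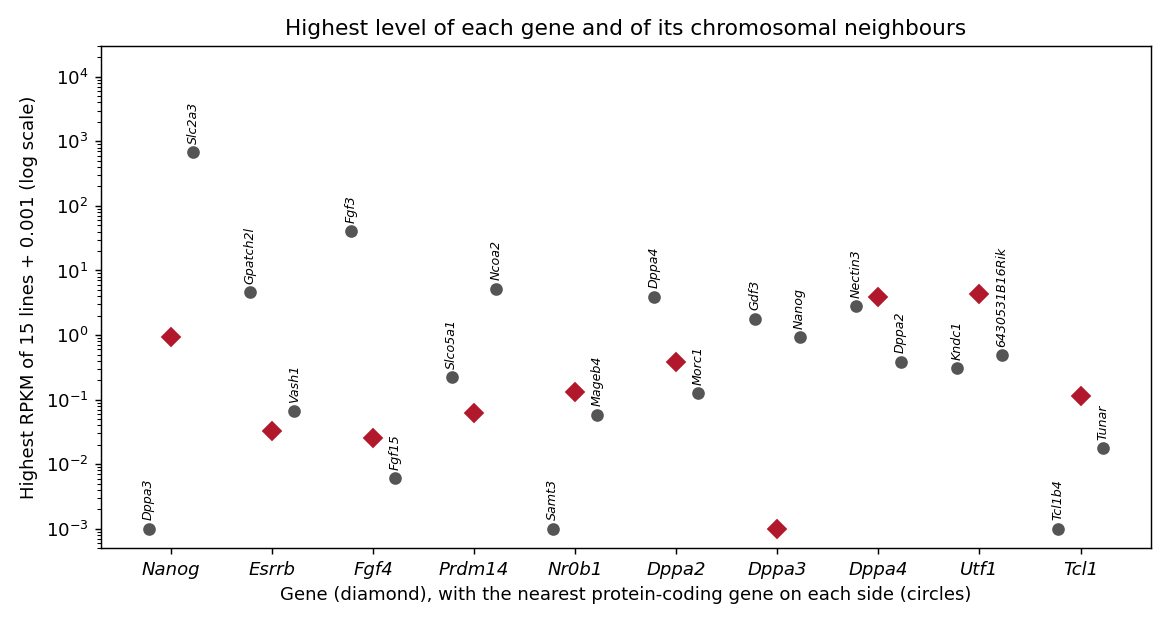
Highest RPKM of the 15 lines, plus 0.001 on a log axis, for each of the 10 genes (diamonds) and for the nearest protein-coding gene before and after it in the annotation (circles). Slc2a3 beside Nanog reaches 679 RPKM and Nanog 0.929, while Utf1, Dppa4, Nr0b1 and Tcl1 lie above both of their neighbours.

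For the 4 genes with at least 10 counts in at least 5 lines, the genes with the most similar ranks over the 15 lines were sought among the 12816 genes whose mean over the lines reached 1 CPM. With so many candidates and few counts such values are descriptions only. Nanog was most like the noncoding RNA E130317F20Rik (rho = 0.811), the pseudogene Gm11346 (0.8) and Slc25a18, a mitochondrial carrier (0.786). Dppa2 was most like Rybp, a subunit of Polycomb complexes (rho = 0.949), the exonuclease Xrn1 (0.874) and Tbc1d2b (0.87). Dppa4 was most like Inpp5d, a phosphatase (rho = 0.85), Mtx3 (0.821) and Mmel1 (0.793). Utf1 was most like Acp5, an acid phosphatase (rho = 0.878), Hcrtr1, a receptor for orexin (0.857) and Nap1l1, a histone chaperone (0.842). Rybp ranged only from 49 to 117 CPM where Dppa2 ran from 0 to 0.944, and no gene appeared for more than 1 of the 4.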

How the data were processed

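Polyadenylated RNA of 15 lines was sequenced from stranded Illumina mRNA libraries, per the labels' protocols. The authors deposited read counts, whole numbers for each Ensembl gene, in 1 table for retroviral and 1 for lentiviral lines. The submitters' processing notes list HISAT2 2.1.0, HTSeq 0.11.2, SAMtools 1.9, Trimmomatic 0.39, FastQC 0.11.7 and the build mm10. The annotation, strand setting and filter were not given in the sources used here, which leaves overlapping and antisense genes uncertain. Of 43432 identifiers, 42462 were matched to GENCODE M21 (GRCm38, the assembly of mm10), which gave symbols, exon lengths and neighbours. HTSeq summary rows were left out.

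CPM used library sizes scaled by the trimmed mean of M values (TMM), and intervals were exact Poisson intervals at 95%. Tests were made with edgeR 4.0.16 (R 4.3.3), by the quasi-likelihood F test on genes kept by filterByExpr (minimum count 10), for each comparison on its own 10 libraries, with Benjamini-Hochberg adjustment over all genes tested and a threshold of 0.05. The standard error is the size of the log2 difference over the square root of F. The procedure was tested on simulated counts. Alternatives were DESeq2 1.42.0, limma 3.58.1 voom, other scalings, filters, limits and pseudocounts, the replicate number as a block, and each library left out. Leaving out libraries in doubt together, leaving out each for the counts of values, and thinning were added after seeing the data. Near-identical copies were sought with BLAST+ 2.17.0 at 95% identity over at least 100 bases.

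The 10 genes and all gene lists were chosen with earlier results of these data known. Named genes were the 10, their nearest protein-coding neighbours, the 3 genes most alike in rank, 12 network genes fixed by name, Gata4, Gata6 and Sox17, and up to 4 genes with the highest mean CPM from each list. Other list members named were chosen after their values were seen.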

Additional observations from a re-analysis of the deposited data

Results flagged for a closer look

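In 60 groups of 5 lines, 10 had 1 line far from the others. The measure was the ratio of its gap to the nearest line over the range of the group, with a limit of 0.71. This limit gives about 1 in 20 by chance only for values that follow a normal distribution. Many CPM here were 0, and a single line above 0 always gives a ratio of 1. Groups entered only with a highest count above 3, so the 10 flags are a description and cannot be set against that rate. Of the 10 genes, Dppa4 in retroviral line 3 was at 6.51 CPM, with the other retroviral lines at 0.084 to 1.15. Nr0b1 in SKM line 4 was at 0.233 CPM (14 counts), with the others at 0 to 0.0155, and Esrrb in the same line at 0.0831 CPM (5 counts), with the others at 0. Tcl1 in retroviral line 5 was at 0.207 CPM (9 counts), with the others at 0 to 0.0479, and Fgf4 in lentiviral OSKM line 1 at 0.0739 CPM (5 counts), with the others at 0. For Esrrb and Fgf4 the high value rests on 5 counts.

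Among the comparison genes, retroviral line 1 had 66.4 CPM of Sox2, with the others at 0 to 4.93, and 4.36 CPM of Gdf3, with the others at 0. Retroviral line 5 had 419 CPM of Klf5, with the others at 89.8 to 172. SKM line 1 had 247 CPM of Tfcp2l1, with the others at 69.6 to 120, and SKM line 4 had 5.1 CPM of Dppa5a, with the others at 0 to 0.245. The cause of these values was not tested.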

How the results depend on the processing

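Depth limits what can be said of the 6 rarest genes, whose totals are 0 to 23 counts. Thinned to the shallowest library, 107 of 150 values were at 3 counts or fewer, against 98. Values above 1 CPM numbered 4 without the 3 libraries in doubt (retroviral line 3, lentiviral OSKM line 5 and SKM line 1), 5 to 7 with each library left out, and 21 above 0.5 CPM and 43 above 0.1 CPM. Values at 3 counts or fewer were 89 to 93 with each left out. The cause of other changes below was not tested.

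In the SKM comparison DESeq2 called 44 genes, and 0 were called with each library left out. In the retroviral comparison, with 39 calls, an adjusted p of 0.1 gave 128, DESeq2 623, voom 63, no filter 24, a 1 CPM filter 61, all 15 libraries in the fit 155, and leaving out retroviral line 3 and lentiviral OSKM line 5 gave 12. Each library left out gave 15 to 101 calls, over 1.5 times away for retroviral lines 1, 2, 4 and 5 and lentiviral OSKM lines 1, 2 and 4.

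Same-numbered lines did not vary together (correlations −0.173 to 0.267; 1 of 5 and 0 of 5 lines matched their own number best), so the numbers do not pair them. The replicate block left 3 calls in the retroviral and 0 in the SKM comparison, with log2 differences of 0.12 for Nanog and −0.41 for Dppa4 in the former and 0.22 for Utf1 in the latter. Those 2 also reversed under voom (0.24 and −0.15), without lentiviral OSKM line 5 (Nanog 0.53), without retroviral line 3 (Dppa4 −0.75) and without both (0.3 and −1.02). With each library left out, Nanog ran from −0.98 to 0.53, Dppa4 from −0.75 to 1.52 and Utf1 from 3.12 to 4.32, and in the SKM comparison −2.26 to −0.64, −1.19 to −0.41 and 0.76 to 2.03, where Nanog was −0.36 without lentiviral OSKM line 5 and SKM line 1. Utf1 passed under DESeq2 alone (3.93).

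For the retroviral, lentiviral OSKM and SKM lines, the median level was −2.87, −3.14 and −3.1 with a pseudocount of 0.1, 0.06, 0.02 and 0.03 with 1, and −0.5, −0.69 and −0.75 as a mean over the genes. With each library left out it was −0.93 to −0.85, −0.98 to −0.95 and −0.98 to −0.94, and the sum 2.49 to 5.6, 1.68 to 2.06 and 1.06 to 1.49 CPM. The lentiviral OSKM sum per kilobase was 0.993.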
